A study of Mus musculus with 12 samples.

Results

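The Bcl2 family outside the targets of p53 is taken here as 10 genes, chosen by name and role: the antiapoptotic genes Bcl2, Bcl2l1 and Mcl1, the BH3-only genes Bcl2l11, Bid, Bad, Bik and Bmf, and the multidomain genes Bak1 and Bok. All 10 were found among the 18193 genes of the array, with 34 of its 45037 probe sets that are not controls. RNA was measured in 12 livers of C57Bl/6 mice aged 3 months: 4 wild type, 4 Atp7b-/- and 4 Atp7b-/- given supplemental zinc. Atp7b encodes an ATPase that moves copper out of hepatocytes, and its loss leads to copper overload. The sources used here do not give the disrupted part of the gene, or the dose and duration of zinc. They say that 4 mutant mice received zinc, but not whether each other array came from an animal of its own. The spread on which the p-values rest is therefore that between arrays, and some of it may be technical.

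Proteins of the Bcl2 family decide at the outer mitochondrial membrane whether a cell starts apoptosis. Multidomain effectors open the membrane and let cytochrome c out, antiapoptotic members hold them in check, and BH3-only members, switched on by stress, tip that balance. In the liver Bcl2l1 and Mcl1 are known as the main guards of hepatocytes, while Bid carries the death receptor signal to mitochondria. Much of the control of these proteins lies after transcription, in cleavage, phosphorylation and turnover, which an RNA measurement does not read.

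Levels are log2 intensities, so that a difference of 1 is a doubling, and each gene was read from its brightest probe set, by the mean of all 12 arrays. Calls rest on a limma fit of all 12 arrays and needed a p under 0.05 after Benjamini-Hochberg adjustment over all 18193 genes. The liver label fits its markers: 8 hepatocyte genes, albumin among them, had a mean log2 level between 14.06 and 14.23 in all arrays. Atp7b itself was lower in both mutant groups, with means of 8.60 in wild type, 7.11 in untreated Atp7b-/- and 6.83 with zinc (adjusted p = 2.04e-07 and 1.22e-07 against wild type by limma). Whether its probe set lies inside the disrupted part is not known here. Among the arrays, zinc-treated replicates 2 and 3 stood apart: the mean of 8 pancreatic acinar genes was 9.95 and 7.36 there, and between 5.86 and 6.23 in the other 10 arrays. Control probe sets at both ends of the actin and Gapdh transcripts gave a 3' minus 5' difference, which grows as RNA degrades. It ran from 0.79 to 0.88 log2 units in untreated Atp7b-/-, from 0.62 to 0.78 in wild type and from 0.54 to 0.74 with zinc. RNA quality and group cannot be told apart in comparisons with the untreated mutants. In whole liver, fewer cells of a type and less RNA per cell cannot be told apart either.

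Atp7b-/- and wild type livers were compared to ask whether loss of the copper transporter changed the RNA of this family. None of the 10 genes was called, whereas 24.6% of all genes were, 14.3% higher and 10.3% lower. Of the 10 differences, 3 were positive and 7 negative, between -0.42 (Bid) and 0.25 (Bak1), with a median of -0.096 beside -0.049 for all genes. Before adjustment 3 genes had a p under 0.05: Bcl2l1, Bad and Bak1. No member had arrays that failed to overlap between the groups, as 26.4% of all genes did. For 7 genes the 95% interval of the difference lay within 0.5 log2 units of 0. Among these, the intervals of Bcl2l1 (0.014 to 0.40) and Bad (-0.34 to -0.017) left out 0. Neither such an interval nor a miss of the threshold shows that a gene was equal in the groups. The plot of levels by array shows the members side by side.

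**Figure D1:**
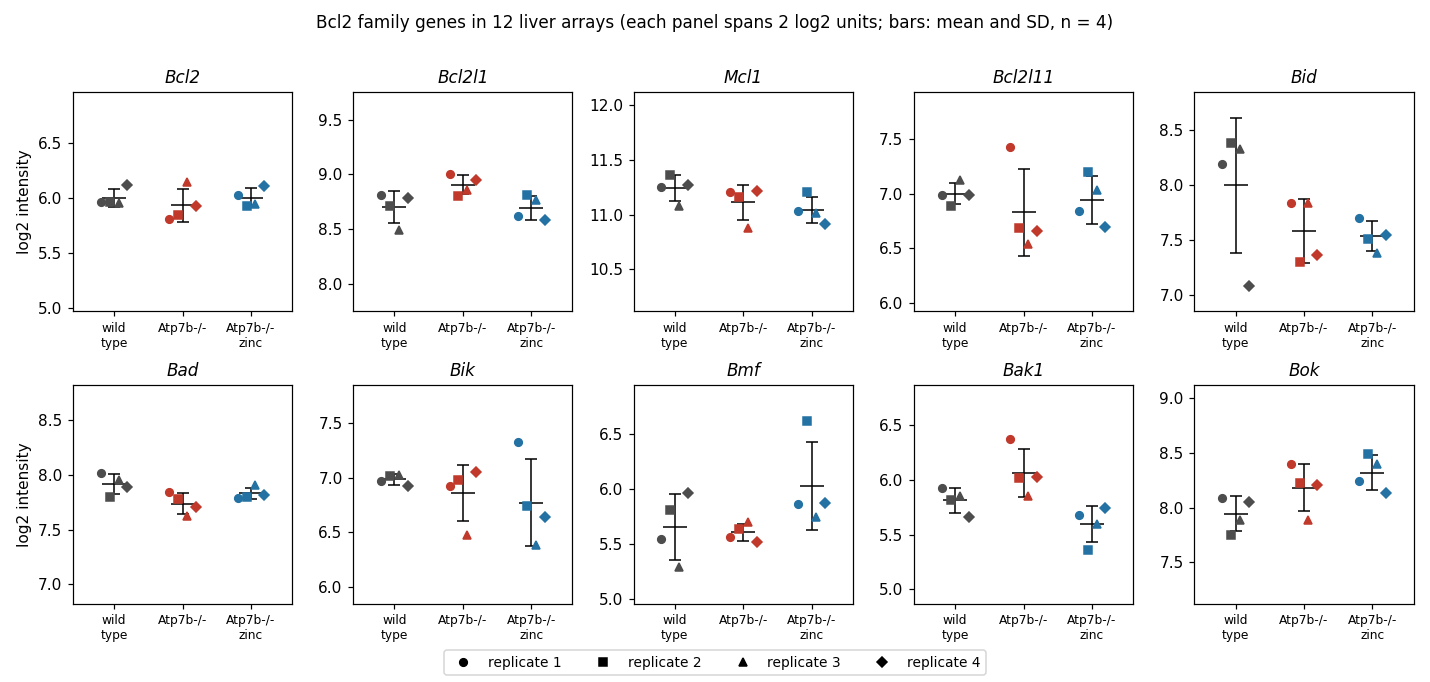
Log2 intensity of the 10 genes (y axis, each panel spanning 2 log2 units) in the 3 groups (x axis), with each array as a point whose shape gives the replicate number and bars for the mean and SD of 4 arrays. Single arrays stand away from their group for Bid (wild type replicate 4 at 7.08), Bcl2l11 (Atp7b-/- replicate 1 at 7.42) and Bmf (zinc-treated replicate 2 at 6.62).

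Among the antiapoptotic genes, Bcl2 (gene 12043, GRCm38 chromosome 1, 106538176 to 106714290), the founding member of the family, had the smallest spread of means on the probe sets that stood for them. Its arrays read 5.96, 5.96, 5.96 and 6.12 in wild type, 5.81, 5.85, 6.15 and 5.93 in Atp7b-/-, and 6.03, 5.92, 5.95 and 6.11 with zinc. The 3 groups overlapped. The difference of Atp7b-/- from wild type was -0.066 (95% interval -0.25 to 0.12, adjusted p = 0.597 by limma), and that of zinc-treated from wild type was 0.0044 (-0.18 to 0.19).

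Bcl2l1 (gene 12048, chromosome 2, 152758732 to 152833803) encodes Bcl-xL, which binds and restrains the effectors. Its arrays read 8.81, 8.71, 8.49 and 8.79 in wild type, 9.0, 8.81, 8.86 and 8.95 in Atp7b-/-, and 8.62, 8.81, 8.76 and 8.58 with zinc. Untreated mutants held the highest value of all, but their lowest array lay at the level of the highest wild type one. The difference was 0.21 against wild type (0.014 to 0.40, adjusted p = 0.107 by limma), and zinc-treated mice differed from untreated mutants by -0.21 (-0.40 to -0.023, adjusted p = 0.175), neither of which passed. Zinc-treated mice and wild type differed by -0.0081 (-0.20 to 0.18). The other 3 probe sets of Bcl2l1 did not follow: against wild type they differed by -0.052, 0.10 and -0.021 without zinc. With zinc, against untreated mutants, they differed by 0.041, 0.051 and 0.12, and none of these 6 values was called.

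Mcl1 (gene 17210, chromosome 3, 95656944 to 95663179) encodes a short-lived antiapoptotic protein that hepatocytes need. On the probe set that stood for it, 1448503_at, the arrays read 11.26, 11.36, 11.08 and 11.27 in wild type, 11.21, 11.16, 10.87 and 11.21 in Atp7b-/-, and 11.03, 11.20, 11.01 and 10.91 with zinc. All groups overlapped, and the difference of Atp7b-/- from wild type was -0.13 (-0.34 to 0.079, adjusted p = 0.344 by limma). Against wild type the zinc-treated mice differed by -0.20 (-0.41 to 0.0051, adjusted p = 0.243).

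The other 5 probe sets of Mcl1 did not all follow. In a fit over all 45037 probe sets, 1437527_x_at rose in Atp7b-/- by 0.61 (adjusted p = 0.00475 by limma) and 1416880_at by 0.27 (adjusted p = 0.0412), while 18.8% of all probe sets were called. On 1437527_x_at the arrays read 8.29, 8.58, 8.11 and 8.45 in wild type, 9.24, 8.71, 8.88 and 9.04 in Atp7b-/-, and 8.51, 8.42, 8.31 and 8.69 with zinc. Every untreated mutant array lay above every array of the other groups. With zinc this probe set fell by 0.48 (adjusted p = 0.0492), where 4.47% of probe sets were called. That call was lost without zinc-treated replicates 2 and 3, at -0.37 (adjusted p = 0.330), and after median centring, at -0.51 (adjusted p = 0.0515). The rise against wild type passed at every scaling and with every array left out, between 0.51 and 0.70. That of 1416880_at lost its call at 0.19 after quantile normalization and in 9 of the other settings. On the remaining 3, the differences from wild type were 0.38 (1456243_x_at, adjusted p = 0.0644), 0.19 (1456381_x_at) and -0.097 (1416881_at).

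Thus 4 of 6 probe sets of Mcl1 were higher in Atp7b-/- and 2 lower. The gap between 1448503_at and 1437527_x_at on the same array was 2.97, 2.78, 2.98 and 2.82 in wild type and 1.97, 2.45, 1.99 and 2.17 in Atp7b-/-. It was 2.52, 2.79, 2.70 and 2.22 with zinc. No untreated mutant array reached the wild type range, which shows unequal change of the signals and not which of them changed. The pair was chosen after its values were seen, and no test is given. As the mean of all 6 probe sets, Mcl1 differed from wild type by 0.20 (adjusted p = 0.0893). The suffix _x_at marks probes that can also bind related transcripts, and where the probe sets lie along the transcript is not known here. The part of the 3' to 5' difference in this result was not tested.

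**Figure D2:**
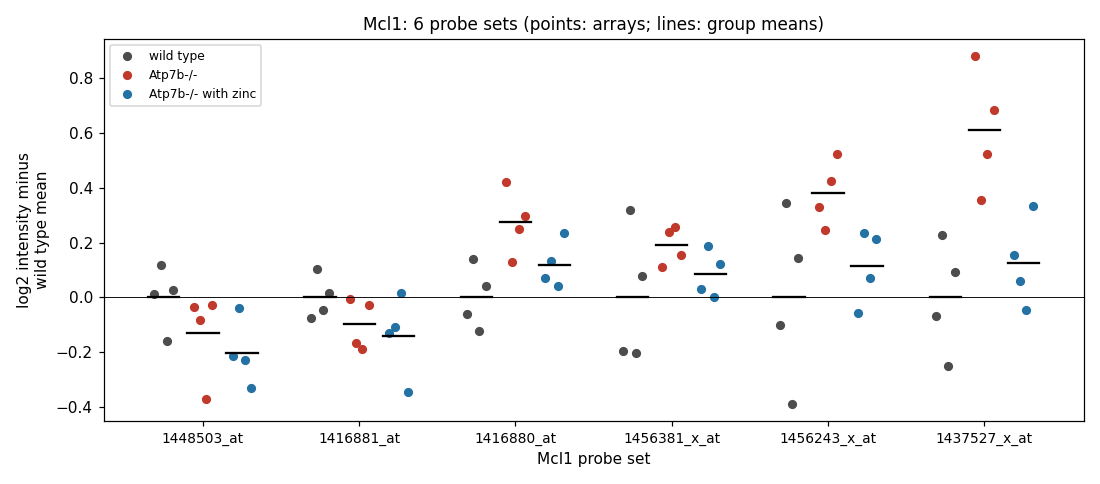
Log2 intensity minus the wild type mean (y axis) for the 6 probe sets of Mcl1 (x axis), with each array as a point and group means as lines. The untreated Atp7b-/- mean lies 0.61 above wild type on 1437527_x_at and 0.13 below it on 1448503_at (-0.13).

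Of the BH3-only genes, Bid (gene 12122, chromosome 6, 120893119 to 120917062), cleaved by caspase-8 to carry the death receptor signal to mitochondria, showed the largest difference. It read 8.19, 8.39, 8.33 and 7.08 in wild type, 7.84, 7.30, 7.83 and 7.36 in Atp7b-/-, and 7.70, 7.51, 7.38 and 7.55 with zinc. Wild type replicate 4 was the lowest of all 12 arrays, and the other 3 wild type arrays lay above all 8 mutant ones. The difference from wild type was -0.42 without zinc (-0.93 to 0.10, adjusted p = 0.223 by limma) and -0.46 with it (-0.98 to 0.057, adjusted p = 0.291). Without wild type replicate 4 both were called, at -0.72 (adjusted p = 0.0029) and -0.77 (adjusted p = 0.00462).

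Wild type replicate 4 was also low on the second probe set of Bid, 1448560_at, at 5.36 against 6.05, 6.22 and 6.07 in the other wild type arrays. It also had the lowest mean of 10 macrophage markers in its group, 8.10 against 8.57, 9.03 and 8.66. The array was likewise the lowest of its group for dividing-cell (5.19 against 5.54 to 5.89), neutrophil, cholangiocyte and stellate markers. It was not the lowest for hepatocyte, lymphocyte, endothelial or pancreatic acinar markers. Over the 10 macrophage markers 7 fell and 0 rose in Atp7b-/-, where 10.3% of all genes fell and 14.3% rose. With zinc 0 of 10 were called against wild type, where 7.62% of all genes were. Of the 10, 8 had an unadjusted p under 0.05 by limma there. Group means were 8.59 ± 0.38 (SD, n = 4) in wild type, 7.94 ± 0.48 in Atp7b-/- and 7.96 ± 0.16 with zinc. None of the 10 was dim in every group. The part of these cell types in the level of Bid was not tested.

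Bcl2l11 (gene 12125, chromosome 2, 128126038 to 128162547) encodes Bim, a BH3-only protein that binds all antiapoptotic members. Its arrays read 6.99, 6.89, 7.12 and 6.98 in wild type, 7.42, 6.69, 6.54 and 6.66 in Atp7b-/-, and 6.84, 7.19, 7.03 and 6.69 with zinc. Replicate 1 of Atp7b-/- was the highest array and the other 3 lay below all of wild type. The difference was -0.17 (-0.53 to 0.19, adjusted p = 0.476 by limma), and -0.37 without replicate 1 (adjusted p = 0.0323), where it was called. On the probe set 1435448_at the same array was again the highest, at 7.28 against 6.32, 6.42 and 6.61, but the difference of the groups had the other sign there, 0.17 (adjusted p = 0.508). Replicate 1 also had the highest mean of macrophage markers among the untreated mutants, 8.63 against 7.61 to 7.90, and of 9 lymphocyte markers, 5.09 against 4.71 to 4.84. Of those 9, 2 were dim in all groups, and 0 were called by limma against wild type, with 1 at an unadjusted p under 0.05. Atp7b-/- replicate 1 was also the highest of its group for neutrophil (5.18 against 4.92 to 5.07), dividing-cell (8.91 against 8.01 to 8.45), endothelial and pancreatic acinar markers. It was not the highest for hepatocyte, cholangiocyte or stellate markers. Its median correlation with the other arrays of its group, r = 0.991, was the lowest of all 12 arrays. The part of these cell types in the level of Bcl2l11 was not tested.

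Bad (gene 12015, chromosome 19, 6941861 to 6951905), which is held inactive by phosphorylation after growth factor signals, read 8.02, 7.80, 7.95 and 7.89 in wild type and 7.84, 7.77, 7.63 and 7.71 in Atp7b-/-. With zinc it read 7.79, 7.80, 7.91 and 7.82. The range of Atp7b-/- lay mostly below that of wild type, and the difference was -0.18 (-0.34 to -0.017, adjusted p = 0.0987 by limma). After quantile normalization it was -0.28 and called (adjusted p = 0.0314), and on the second probe set, 1416583_at, it was -0.032 (adjusted p = 0.792).

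Bik (gene 12124, chromosome 15, 83526790 to 83544635), a BH3-only protein of the endoplasmic reticulum, read 6.97, 7.02, 7.03 and 6.92 in wild type, 6.92, 6.98, 6.48 and 7.05 in Atp7b-/-, and 7.32, 6.74, 6.38 and 6.64 with zinc. The groups overlapped, with differences from wild type of -0.13 (-0.49 to 0.24) and, with zinc, -0.21 (-0.58 to 0.15). Zinc-treated replicate 1 was the highest of its group on all 3 probe sets of Bik, at 7.32, 5.98 and 5.38. Over the 12 arrays the other probe sets correlated with the first at r = 0.92 and 0.87, given as a description of probe sets that share each array. For Bcl2 the same values lay between -0.28 and -0.0080.

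Bmf (gene 171543, chromosome 2, 118528757 to 118549686) is known to be released from the cytoskeleton when cells detach. On the probe set that stood for it, Atp7b-/- differed from wild type by -0.048 (-0.43 to 0.34, adjusted p = 0.864 by limma). On 1422995_at the difference was -0.24 (adjusted p = 0.0783), without a call, though every untreated mutant array lay below every wild type one. On 1458325_x_at it was -0.066. Arrays of the chosen probe set read 5.55, 5.81, 5.29 and 5.97 in wild type, 5.56, 5.64, 5.7 and 5.52 in Atp7b-/-, and 5.87, 6.62, 5.75 and 5.87 with zinc. All zinc-treated arrays lay above all untreated mutant ones, as they did for 1422995_at, the second probe set. The difference with zinc was 0.42 (0.036 to 0.81, adjusted p = 0.186) and 0.28 on 1422995_at (adjusted p = 0.10), neither of which passed. On the third probe set, 1458325_x_at, it was -0.14 (adjusted p = 0.715), and the groups overlapped. Replicate 2, the array with most pancreatic transcripts, held the highest value, and without replicates 2 and 3 the difference was 0.26 (adjusted p = 0.462). The part of pancreatic RNA was not tested.

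The multidomain genes come last. Bak1 (gene 12018, chromosome 17, 27019812 to 27028627) encodes an effector that forms pores in the outer mitochondrial membrane. Its arrays read 5.93, 5.81, 5.85 and 5.66 in wild type, 6.37, 6.01, 5.85 and 6.03 in Atp7b-/-, and 5.67, 5.36, 5.59 and 5.74 with zinc. Untreated mutants held the highest array and zinc-treated mice the lowest. The difference of Atp7b-/- from wild type was 0.25 (0.0067 to 0.50, adjusted p = 0.122 by limma), which did not pass.

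Zinc-treated and untreated Atp7b-/- mice were compared to ask which genes differed with zinc. Bak1 was the 1 member of 10 that passed, while 6.54% of all genes did, 4.84% falling and 1.7% rising. It fell by 0.47 on the log2 scale, or 1.39-fold (-0.72 to -0.23, adjusted p = 0.0266 by limma), from 6.07 ± 0.22 (SD, n = 4) to 5.59 ± 0.17, with no overlap of arrays. Bak1 and Bmf were the 2 members without overlap, beside 15.3% of all genes. The median of the 10 differences was 0.012, against 0.011 over all genes, and 3 members had an unadjusted p under 0.05: Bcl2l1, Bmf and Bak1. This comparison shares the untreated mutants with that against wild type, so the values of Bak1 in the 2 are not independent.

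The call of Bak1 was lost in 8 of 24 other settings, among them the fit without zinc-treated replicates 2 and 3 (-0.36, adjusted p = 0.203), of which replicate 2 was the lowest array. Without Atp7b-/- replicate 1, the highest array, the difference was -0.37 (adjusted p = 0.0547). The second probe set, 1425716_s_at, read 5.02 ± 0.25 in Atp7b-/- and 5.05 ± 0.37 with zinc, a difference of 0.029 (adjusted p = 0.957). As the mean of both probe sets, Bak1 differed by -0.22 (adjusted p = 0.371).

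Bok (gene 51800, chromosome 1, 93685575 to 93695770), a relative of Bak1 found largely on the endoplasmic reticulum, had 1 probe set. It read 8.09, 7.75, 7.88 and 8.05 in wild type, 8.40, 8.23, 7.89 and 8.20 in Atp7b-/-, and 8.24, 8.49, 8.40 and 8.13 with zinc. Every zinc-treated array lay above every wild type one. In the third comparison, of zinc-treated mutants with wild type, Bok differed by 0.37 (0.12 to 0.63, adjusted p = 0.0777 by limma), which did not pass. Without zinc-treated replicates 2 and 3 the difference was 0.24 (adjusted p = 0.417), and without Atp7b-/- replicate 3, which enters only the shared estimate of the spread, the unchanged difference was called (adjusted p = 0.0483).

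In that comparison 0 of 10 members were called and 7.62% of all genes, 4.89% higher and 2.73% lower, and by unadjusted p under 0.05 Bok alone of the 10. It was also the 1 member without overlap, beside 14.3% of all genes. Differences ran from -0.46 (Bid) to 0.37 (Bmf), with a median of -0.070 beside -0.023 for all genes, and for 6 members the 95% interval lay within 0.5 log2 units of 0. The plot of differences gives all 30 values with their intervals.

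**Figure D3:**
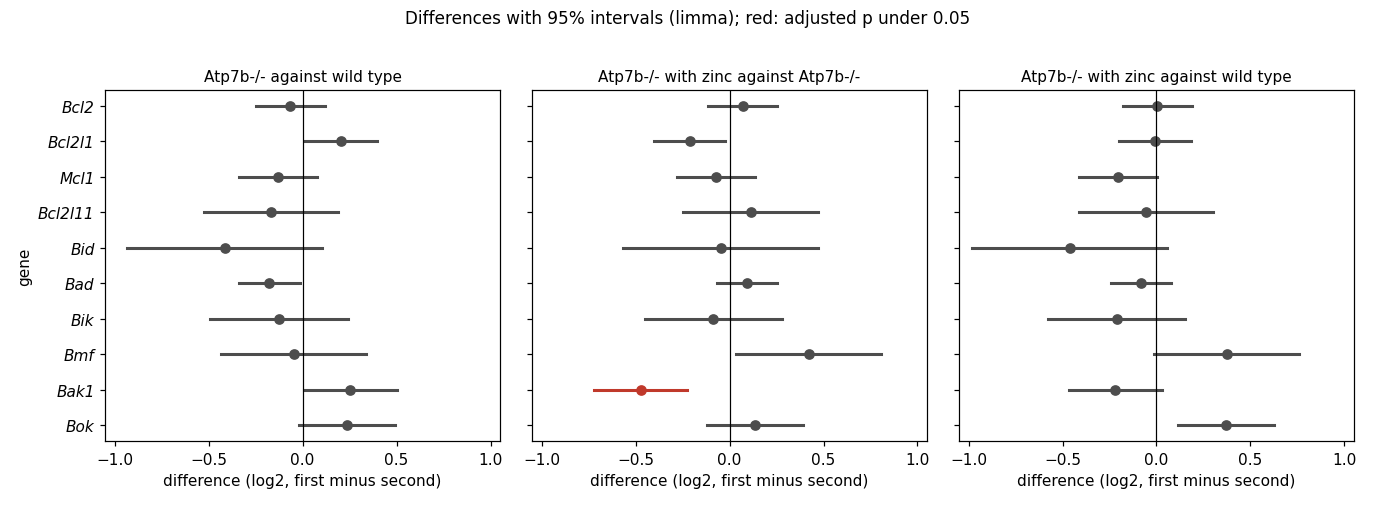
Difference in log2 intensity (x axis, first group minus second) of the 10 genes (y axis) in the 3 comparisons, with 95% intervals from limma and calls in red. Bak1 with zinc, at -0.47, is the 1 call, and the intervals of Bid are the widest, reaching -0.93 and -0.98 against wild type.

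Promoters of Bak1 and Bok are shown because these multidomain genes had the lowest adjusted p of the family with zinc, against untreated mutants and against wild type. RefSeq (GRCm38.p6) gave promoters for 9 of the 10 genes, in 15 entries. Each printed run is the 250 bases before the start of the gene, 5′ to 3′ on the gene's strand, at chr17:27028628-27028877 (minus strand) and chr1:93685325-93685574 (plus strand). Capitals mark the core of the metal response element, the site through which the zinc-sensing factor Mtf1 acts, searched as TGCACNC or TGCGCNC on both strands.
Bak1: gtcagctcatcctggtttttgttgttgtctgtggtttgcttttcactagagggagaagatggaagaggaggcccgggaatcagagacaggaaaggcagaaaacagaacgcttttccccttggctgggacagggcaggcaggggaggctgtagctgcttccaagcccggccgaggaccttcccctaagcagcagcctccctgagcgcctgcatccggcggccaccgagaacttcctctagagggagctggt
Bok: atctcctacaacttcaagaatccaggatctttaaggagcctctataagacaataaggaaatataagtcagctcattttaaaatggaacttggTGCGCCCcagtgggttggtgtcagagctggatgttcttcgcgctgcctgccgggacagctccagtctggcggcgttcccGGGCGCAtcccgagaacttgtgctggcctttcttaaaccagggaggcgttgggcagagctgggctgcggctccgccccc
No match stood in the window of Bak1 and 2 in that of Bok. Such a core was found in 7 of the 15 entries, of 6 genes (Bcl2l1, Bcl2l11, Bid, Bad, Bmf and Bok), and in 21.4% of 32851 promoters of the same length. These are matches of letters and not sites shown to be used.

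Over all 34 probe sets of the family, 3 were called higher and 0 lower in Atp7b-/- against wild type, where 10.2% of all probe sets were higher and 8.63% lower. Besides both Mcl1 probe sets, the third was 1440770_at of Bcl2, which was called higher (adjusted p = 0.0185 by limma), at 3.79 ± 0.21 (SD, n = 4) in wild type and 4.18 ± 0.14 in Atp7b-/-. A level is termed dim below the mean lower quartile of its group's arrays, 4.23 in wild type and 4.15 in Atp7b-/-. The wild type level was dim and that of Atp7b-/- also lay below 4.23, so no size is given for this change. Only 1 probe set was called without replicate 1 of Atp7b-/-, and likewise without wild type replicate 1 or 3, while 5 were without wild type replicate 2. With zinc, 2 of 34 fell and 0 rose, those of Bak1 and Mcl1 named above, where 3.1% of all probe sets fell and 1.37% rose. Neither was called without zinc-treated replicates 2 and 3. Against wild type 0 of 34 were called with zinc by limma, 2 had an unadjusted p under 0.05, and 4.79% of all probe sets were called, 2.97% higher and 1.82% lower. None of the 10 chosen probe sets was dim in any group, and 2 of the other 24, of Bcl2l1 and Bcl2l11, were dim in all 3.

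**Figure D4:**
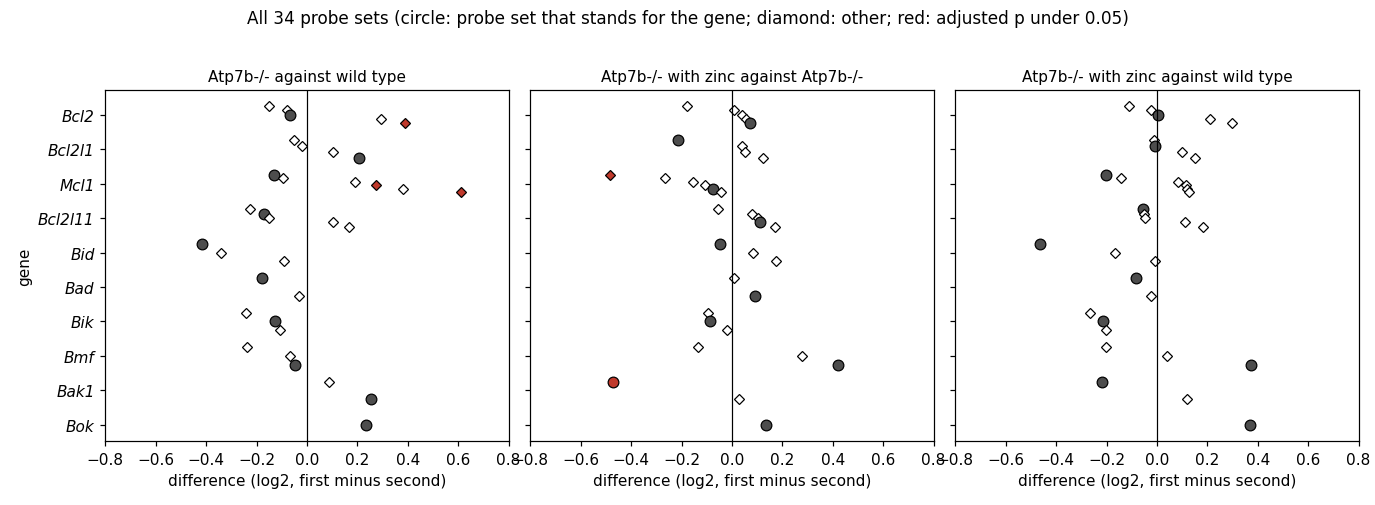
Difference in log2 intensity (x axis, first group minus second) for each of the 34 probe sets, by gene (y axis), in the 3 comparisons; circles are the probe sets that stand for a gene, diamonds the others, and calls are red. Probe sets of Bid, Bad, Bik and Bmf all lie below 0 in Atp7b-/- against wild type, without a call, and those of Mcl1 lie on both sides.

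Genes around the family were taken from lists chosen with earlier results of these data known, and their genes were named by adjusted p. In Atp7b-/- against wild type 4 of 13 measured genes of the apoptosome and caspase list rose and 1 fell, with a median of 0.12. Endog, a mitochondrial nuclease set free when the outer membrane opens, rose by 1.66 (10.36 ± 0.09 to 12.03 ± 0.12, adjusted p = 1.32e-06 by limma). Apaf1, the scaffold on which cytochrome c activates caspase-9, rose by 1.76 (adjusted p = 5.88e-05), or 1.26 as the mean of its probe sets. Birc3 and Diablo, an inhibitor of apoptosis and an antagonist of such inhibitors, rose by 0.45 and 0.38. As the mean of their probe sets these were 0.19 and 0.084, without a call, and Birc3 turned to -0.058 on probe sets without suffix. The call of Diablo was lost in 10 of 23 settings, among them the fits without wild type replicate 1, 2 or 3 and Atp7b-/- replicate 1, 2 or 4. Dffa, which holds the apoptotic DNase in check, fell by 0.23 (its call was lost in 9 settings, 5 of them with 1 array left out) and was chosen for mention after its values were seen.

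In the death receptor list 4 of 13 rose and 1 fell, with a median of 0.16. Mlkl, which carries out necroptosis, rose by 2.39 (6.39 ± 0.08 to 8.77 ± 0.53, adjusted p = 1.45e-06 by limma). The receptors Fas and Tnfrsf1a rose by 0.53 and 0.44, and Casp8, the initiator caspase that cleaves Bid, fell by 0.65 (adjusted p = 0.000917). The fourth to rise was the death ligand Tnfsf10, at 0.48, likewise chosen after its values were seen. Of 24 regulators of Bcl2 family proteins 7 rose and 1 fell, with a median of 0.14. Foxo3, a transcription factor known to drive Bcl2l11, rose by 0.51, Ywhab, a 14-3-3 protein of the kind that holds Bad in the cytosol, by 0.37, and the co-chaperone Bag1 by 0.29. Becn1, an autophagy protein that Bcl2 binds, rose by 0.69, or 0.21 when its probe sets were averaged with a call, but 0.10 on those without suffix and 0.027 after quantile normalization, without one. The gene that fell was Vdac2, a channel that binds Bak, at -0.24, a call lost in 10 settings. These shares stand beside 24.6% of all genes.

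Of 8 measured further relatives of Bcl2, 1 rose, Bcl2l14 by 0.86 (adjusted p = 0.025 by limma). Its call was lost without wild type replicate 2 or 3 and with only the groups compared in the fit. Its untreated mutant arrays read 8.42, 6.84, 7.05 and 7.28, and without replicate 1, the highest, the difference was 0.52 (adjusted p = 0.00781). Of 2 measured members known as p53 targets 1 rose in Atp7b-/-, where 14.3% of all genes did. Pmaip1 was not called and was dim in all 3 groups, with means of 3.60, 3.47 and 3.37. Bax had no probe set of its own here. Bbc3, which encodes the BH3-only protein Puma, rose by 0.40 in Atp7b-/- (7.77 ± 0.19 to 8.17 ± 0.18, adjusted p = 0.019 by limma). That call was lost after quantile normalization and with a minimum change of 0.5 log2 units. It was also lost without wild type replicate 2 or 3 or Atp7b-/- replicate 2 or 4. With zinc Bbc3 stood 0.53 above wild type (adjusted p = 0.0102).

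With zinc, against untreated mutants, 6.54% of all genes were called and 4.84% fell. Of the apoptosome list 2 of 13 fell, Endog by 0.98 (adjusted p = 0.000867 by limma) and Apaf1 by 0.84 (adjusted p = 0.0342). Zinc-treated replicates 2 and 3 were the highest of their group for Apaf1, at 7.08 and 6.76 against 6.00 and 6.10, and without them it fell by 1.28 (adjusted p = 0.00191). The same 2 arrays were the highest for Endog, at 11.33 and 11.34 against 10.74 and 10.78, and without them its difference was -1.27. Of the death receptor list 3 of 13 fell, Mlkl by 0.84, Fas by 0.39 and the lymphotoxin receptor Ltbr by 0.29. Without zinc-treated replicates 2 and 3 the calls of Mlkl and Ltbr were lost, at -0.93 and -0.28. With settings and single arrays varied, Endog kept its call in all 23 settings, while Apaf1 lost it in 7, Mlkl in 6, Fas in 8 and Ltbr in 14. None of the 24 regulators was called by limma, where 8 had an unadjusted p under 0.05. Of 5 dividing-cell markers, 4 rose in Atp7b-/- and 4 fell with zinc, while Mki67 was not called, at 5.53 ± 0.37 (SD, n = 4) in wild type, 5.37 ± 0.63 in Atp7b-/- and 5.36 ± 0.25 with zinc. The mean of all 5 was 5.61 ± 0.32 in wild type, 8.38 ± 0.40 in Atp7b-/- and 6.88 ± 0.21 with zinc, and their part in these results was not tested.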

How the data were processed

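Liver RNA was hybridised to Affymetrix GeneChip Mouse 430 2.0 arrays, per the labels' protocols. The deposited values are log2 intensities, as their range shows. The authors' background correction and normalization are not stated in the labels. Array medians lay between 5.63 and 5.71, and the values were used as deposited. Of 45037 probe sets that are not controls, 34945 are annotated to exactly 1 gene, with symbols updated through RefSeq of GRCm38. Precision is limited by the 4 arrays in each group.

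Group means were fitted with limma 3.58.1 in R 4.3.3 (lmFit, contrasts.fit, eBayes), for 18193 genes and separately for all 45037 probe sets, and p-values were adjusted over each whole table. The fit was tested on simulated data, 1 set for each comparison, with 200 of 18193 genes changed. Of 100 changes of 1 log2 unit put in, it recovered 94 for Atp7b-/- against wild type, 99 for zinc-treated against untreated mutants and 99 for zinc-treated against wild type. Of 100 changes of 0.5 log2 units it recovered 58, 63 and 58, so changes of that size can be missed. In the data a larger share of genes was called, 24.6% in Atp7b-/- against wild type, which moves the adjusted threshold. These counts therefore do not give the share of changes missed in the data. False calls numbered 8, 9 and 6. Errors after ± are SDs of 4 arrays.

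The members and lists were chosen with earlier results of these data known. Named are all 10 members and, of each list, up to 4 called genes per comparison with the smallest adjusted p. Outside that rule, Dffa, Tnfsf10 and Vdac2, the 1 regulator that fell, are named in Atp7b-/- against wild type. Pmaip1 and Mki67, without a call, and Bax, not measured, are named as parts of their lists. No member was called against wild type without zinc, so no gene is named for likeness to it. List genes without a probe set of their own are not analysed here. Alternatives covered scaling, the choice of probe sets, dim genes, variance models, array weights, a replicate block and arrays left out.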

Additional observations from a re-analysis of the deposited data

Results flagged for a closer look

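In 5 of the 30 groups of 4 arrays (10 genes in 3 groups) 1 array lay far from the other 3, and chance flags about 1 in 20 such groups. Wild type replicate 4 stood out for Bid, low at 7.08, and for Bcl2, high at 6.12, although the 4 values of Bcl2 span 5.96 to 6.12. In Atp7b-/-, replicate 1 was high for Bcl2l11 at 7.42 and replicate 3 low for Mcl1 at 10.87. Zinc-treated replicate 2 was high for Bmf at 6.62, and on the other probe sets of Bmf the same array read 4.68 and 4.41, within the range of the other 3 arrays of its group.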

How the results depend on the processing

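Of 720 values of the 10 members (30 comparisons in 24 settings), 707 kept their side of the threshold, 8 lost a call, all of them Bak1 with zinc, 5 gained a call, and 0 called values changed sign. In Atp7b-/- against wild type the number of members called lower was 0, and 1 after quantile normalization (Bad). With single arrays left out it ran from 0 to 1: 1 without wild type replicate 4 (Bid) and 1 without Atp7b-/- replicate 1 (Bcl2l11). With zinc against Atp7b-/- it was 1 (Bak1), and 0 with the mean of all probe sets, with only the groups compared in the fit (adjusted p = 0.0522), with a minimum change of 0.5 log2 units and without zinc-treated replicates 2 and 3. With single arrays left out it ran from 0 to 1. The 0 came without Atp7b-/- replicate 1 or 4 or zinc-treated replicate 2 or 3, at adjusted p of 0.0547, 0.0593, 0.0753 and 0.0595. Over all 24 settings the adjusted p of Bak1 ran from 0.0163 to 0.371. In zinc-treated mice against wild type, members called lower and members called higher each ran from 0 to 1 with single arrays left out (Bid without wild type replicate 4, Bok without Atp7b-/- replicate 3).

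Settings for probe sets were chosen after seeing the data. Against wild type the number called higher in Atp7b-/- ran from 1 to 5 and the number called lower from 0 to 2 with single arrays left out, beside 3 and 0, and 1 was lower after quantile normalization. With zinc against Atp7b-/- the number called lower was 2, 1 after quantile normalization, 1 after median centring, 0 without zinc-treated replicates 2 and 3, and from 0 to 2 with single arrays left out. With zinc against wild type it ran from 0 to 1. Birc3 turned to -0.058 in Atp7b-/- on probe sets without suffix. Calls of Endog, Apaf1, Mlkl, Casp8, Fas and Foxo3 in Atp7b-/- against wild type were kept in all 23 settings.

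The replicate number as a block changed none of the calls of members, and Bak1 kept -0.47 (adjusted p = 0.026). The labels do not say whether the numbers pair the arrays. Same-numbered arrays correlated between -0.13 and 0.24 over 12 pairs, 5 of them above 0.1. In 5 of the 12 the best match had the same number. Such values cannot settle whether the arrays are paired.

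Counts over all genes moved by more than 1.5 times in some settings. Against wild type 2608 rose and 1872 fell in Atp7b-/-, 1422 and 559 with the minimum change, and 1220 fell without Atp7b-/- replicate 4. With zinc against Atp7b-/- 309 rose and 881 fell, 157 and 500 with the minimum change, and 157 and 457 without zinc-treated replicates 2 and 3. With array weights 568 rose. With single arrays left out as few as 163 rose and 526 fell. With zinc against wild type 890 rose and 496 fell, 583 and 216 with the minimum change, 523 and 176 without those replicates, and as few as 292 fell with single arrays left out. The share of calls that were higher was 58.2%, 26.0% and 64.2% as deposited, 49.6%, 40.1% and 58.1% after quantile normalization, and 68.1%, 19.7% and 69.1% after median centring.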
